A study of Cricetulus griseus with 27 samples.

Results

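The imprinted Dlk1-Dio3 domain carries a large group of microRNA (miRNA) genes, and it was described here in CHO-K1 cells, a Chinese hamster ovary line used to make recombinant proteins, and in the vesicles those cells shed. Its members were the rows of a deposited read-count table whose miR number was any of 42 numbers assigned to the domain, whatever the species prefix, letter or arm. The rule found 174 of 4815 entries. By prefix, 19 were hamster (cgr), 72 mouse (mmu), 38 rat (rno) and 45 human (hsa). Of these, 35 had at least 1 count in any of 27 libraries and 139 were at 0. Among all 4815 entries 924 had at least 1 count, a share close to that of the cluster.

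The libraries formed 9 groups of 3, from 3 cultures and 3 fractions: cells, microparticles (MPs, vesicles budded off the cell surface) and exosomes (smaller vesicles of endosomal origin). Every culture was a shaken 15 mL culture with 6 mM glutamine, harvested on day 3. The standard culture received no addition. The osmotic culture received 60 mM NaCl, which added 120 mOsm/L, and the ammonia culture received 9 mM NH4Cl. All came from the single line CHO-K1, and the labels call the replicates biological without saying how the cultures were kept apart. The sources used here do not say how the fractions were isolated, and miRNA counts hold no protein marker by which to check them.

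In mammals the Dlk1-Dio3 domain expresses protein-coding genes (Dlk1, Rtl1, Dio3) from the chromosome inherited from the father and long non-coding RNAs (Meg3, Rian, Mirg) from the maternal one. The miRNAs are cut from the maternal transcripts, some antisense to Rtl1, most from a long run between miR-379 and miR-410. In mouse and human they are known for high levels in embryo, placenta and brain, and for being silenced together where the domain's imprint is changed.

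Libraries held 26516 to 10374430 counts. The 9 standard libraries used the NextFlex Combo-Seq kit and formed 1 pool. The TruSeq Small RNA kit was used for the 18 osmotic and ammonia libraries, which formed another. Stress therefore cannot be told apart from kit and pool, and levels in stressed and standard cultures are set side by side with no test. Levels are in CPM, counts per 1000000 counts of the library, so they are shares of the counted miRNA: fewer vesicles of a kind and less miRNA per vesicle cannot be told apart. The shallowest groups were osmotic exosomes (26516 to 158836 counts), standard cells (132154 to 180764) and ammonia exosomes (116689 to 203816). A count of 0 there allows up to 12.7, 6.47 and 6.32 CPM in that order, at 3 counts over the group's total. Summed markers of other tissues (liver, muscle, neuron, blood and epithelium miRNAs, 29 of 90 entries with counts) ran from 204.7 to 295 CPM in standard cells, 345 to 357 in standard MPs, 419 to 551 in standard exosomes, 15.2 to 117 in osmotic cells and 0 to 42.2 in ammonia cells. They were at 0 in stressed vesicles except for 26.0 CPM in ammonia exosome library 2. The liver and blood lists were at 0 in the cells of all 3 cultures, and 2 names of muscle miR-499-5p gave most of the marker counts. Their part in the results below was not tested.

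The counts came mostly from a few genes at the Dio3 end of the domain, neighbours among those annotated in hamster. Entries of 17 of the 42 miR numbers had counts, and 5 numbers (miR-154, miR-369, miR-377, miR-409 and miR-410) held 98.6% of the 80134 cluster counts. All 35 entries with counts belong to the long run from miR-379 to miR-410. None of the 19 entries of the Meg3 side (miR-770, miR-493, miR-337, miR-665) had a count. None of the 17 entries antisense to Rtl1 had one, among them miR-127, which cleaves the Rtl1 transcript in mouse, nor did the 4 entries of miR-370. Apart from cgr-miR-127 these entries carry mouse, rat and human names, so their zeros are weak evidence for hamster cells. In the whole cluster 15 of 19 hamster names had counts, against 13 of 72 mouse, 5 of 38 rat and 2 of 45 human names. Pooled over all libraries a count of 0 allows up to 0.0450 CPM. Within a single group it allows more, up to 6.47 CPM in standard cells and 12.7 CPM in osmotic exosomes. Of 33 entries of other miRNAs of the domain outside the rule, 2 had counts, 1 count each.

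In the hamster gene order, taken from RefSeq with neighbours only and no coordinates, 13 of the miRNA genes are annotated between Dlk1 and Dio3. From the Dlk1 side they are Mir127, Mir379, Mir300, Mir381, Mir382, Mir134, Mir154, Mir496, Mir377, Mir409, Mir412, Mir369 and Mir410, with Rtl1 between Mir127 and Mir379. The 6 genes from Mir127 to Mir134 had 8 counts in all, 0.00998% of the cluster. The 7 genes from Mir154 to Mir410 had 79834, or 99.6%. Among these annotated genes the change lies between neighbours: Mir382 had 5 counts and Mir134 had 1, while Mir154 had 3433 and Mir496 had 150. Among hamster-named entries, 13 of 13 from Mir154 on had counts against 2 of 6 before it. The other 29 miR numbers have no annotated hamster gene in that table and held 292 counts, of which mmu-miR-485-5p held 182. Genes of those numbers may lie between the ones given here as neighbours. The split at Mir154 was placed after the counts were seen and is a description.

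**Figure D1:**
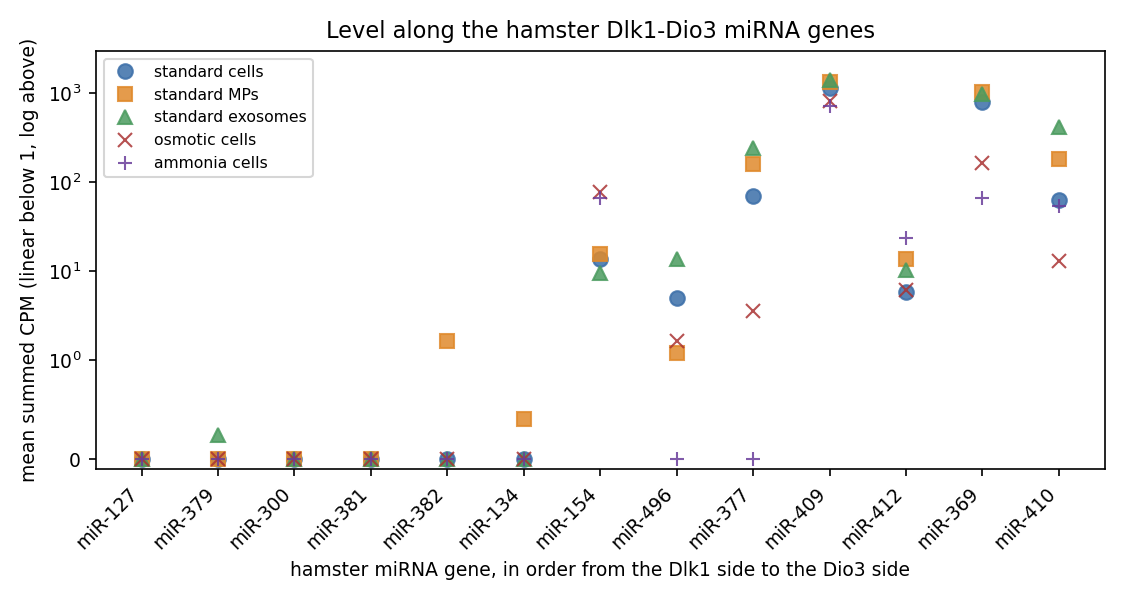
Mean summed CPM (vertical axis, linear below 1 and logarithmic above) of each annotated hamster miRNA gene of the domain, in order from the Dlk1 side to the Dio3 side, in the 3 standard fractions and in osmotic and ammonia cells (n = 3 libraries each). The 6 genes up to miR-134 lie at or near 0 and the genes from miR-154 on carry the counts, with miR-409 and miR-369 highest in standard libraries.

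As a whole the cluster took less than 1% of counts in every library. Its summed level was 2368, 2163 and 1760 CPM in the standard cell libraries, 2650, 2770 and 2775 CPM in standard MPs and 3792, 2877 and 2530 CPM in standard exosomes. Standard cells lay below both standard vesicle fractions without overlap, and MPs and exosomes overlapped. Osmotic cells stood at 1251, 1273 and 749 CPM and ammonia cells at 882, 913 and 1033 CPM, which overlap each other and lie below all standard libraries.

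The stressed vesicle libraries ranged from 0 to the highest level of all 27. Osmotic MPs held 2 cluster counts in all, 0, 0 and 2.06 CPM. Ammonia MPs stood at 267, 0 and 368 CPM and ammonia exosomes at 14.7, 6.50 and 0 CPM from 4 counts. Osmotic exosomes stood at 12.6, 7322 and 75.4 CPM: library 2 alone gave 366 of that group's 370 counts, and cgr-miR-409-3p gave 345 of those 366. In descending order of the mean the groups were standard exosomes (3067 CPM ± 652, SD, n = 3), standard MPs (2732 ± 71.0), osmotic exosomes (2470 ± 4202), standard cells (2097 ± 309), osmotic cells (1091 ± 297), ammonia cells (943 ± 80.1), ammonia MPs (212 ± 190), ammonia exosomes (7.07 ± 7.38) and osmotic MPs (0.685 ± 1.19). Neighbours in that order overlapped except that all libraries of standard cells exceeded all of osmotic cells and all of ammonia cells exceeded all of ammonia MPs. Osmotic exosomes averaged 44.0 CPM without library 2, which would move them to the place after ammonia MPs.

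**Figure D2:**
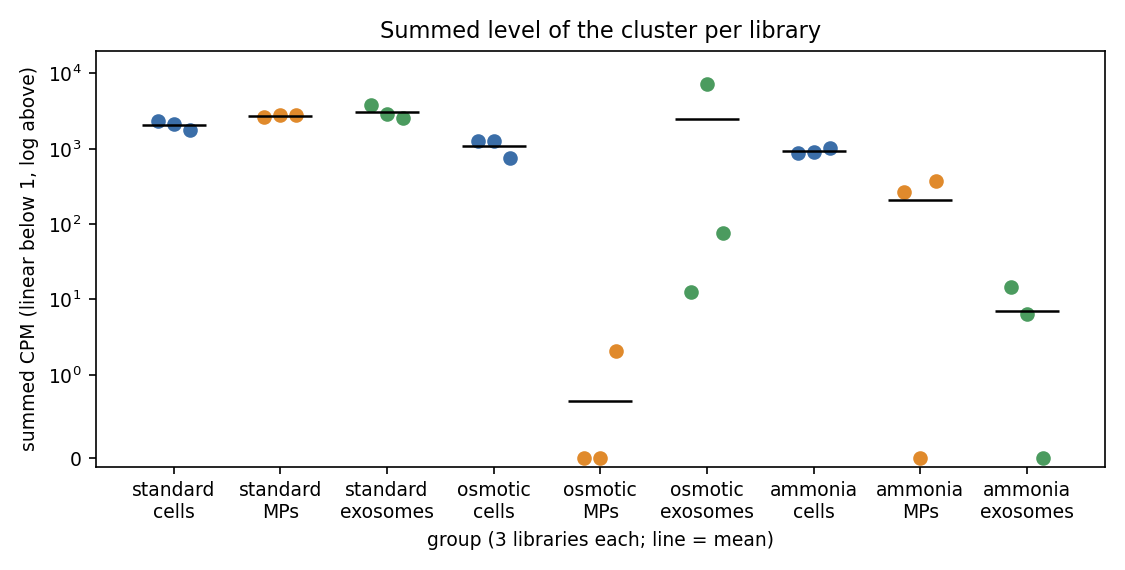
Summed CPM of the 174 cluster entries (vertical axis, linear below 1 and logarithmic above) in each of the 27 libraries, with a line at the mean of each group of 3. Standard libraries lie between 1760 and 3792 CPM, stressed cells between 749 and 1273, and most stressed vesicle libraries lie far lower, apart from osmotic exosome library 2 at 7322.

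Within the standard culture the make-up of the cluster differed most clearly in the share of miR-410. It also differed between standard and stressed cells, with kit and pool changing too. In standard cells, miR-409 entries made up 53.8% ± 5.9 (SD, n = 3) of cluster counts, in MPs 48.3% ± 2.3 and in exosomes 45.9% ± 2.5. The share of miR-369 was 38.7% ± 6.3, 37.7% ± 1.1 and 31.0% ± 5.0 in the same order. Ranges of miR-409 overlapped between all 3 fractions. For miR-369, cells overlapped both vesicle fractions, and MPs lay above exosomes without overlap. The share of miR-410 was 2.84% ± 2.0 in cells, 6.70% ± 2.5 in MPs and 13.5% ± 0.75 in exosomes, and every exosome library (12.9% to 14.4%) exceeded every other standard library (1.53% to 9.17%). The share of miR-377 was 3.55% ± 2.1, 5.90% ± 1.1 and 8.24% ± 2.7, with the ranges of neighbouring fractions overlapping.

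Stressed cells held other proportions. There miR-409 made up 74.5% ± 3.9 of cluster counts in osmotic and 76.7% ± 2.0 in ammonia cells, miR-369 15.4% ± 2.4 and 7.23% ± 3.8, and miR-154 7.59% ± 2.3 and 7.32% ± 5.4. The share of miR-377 was 0.285% ± 0.49 in osmotic cells, and it was at 0 in ammonia cells, where a count of 0 allows up to 0.168 CPM. These proportions changed together with the kit and pool.

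**Figure D3:**
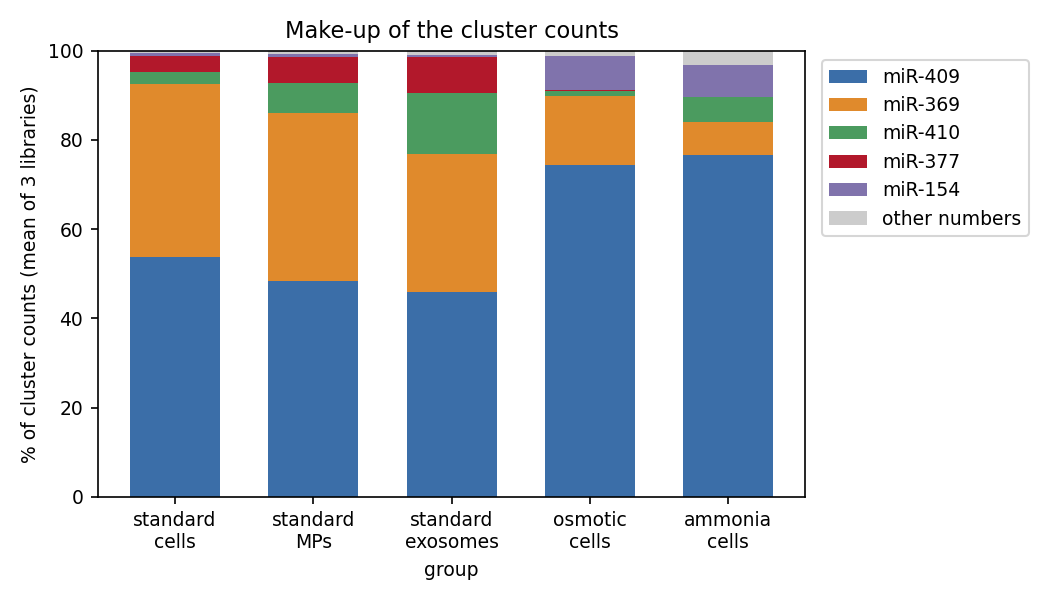
Share of cluster counts (vertical axis, percent, mean of 3 libraries) held by each miR number in the 3 standard fractions and in osmotic and ammonia cells. The share of miR-410 is 2.84% in standard cells and 13.5% in standard exosomes, and miR-409 takes 74.5% and 76.7% in the stressed cells.

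Of the 35 entries with counts, 14 averaged at least 10 CPM in a group and 8 at least 50 CPM. The other 21 stayed at or below a group mean of 6.67 CPM, with 1 to 182 counts over all libraries. The entry with the most counts over all libraries was cgr-miR-409-3p, from a gene whose product is studied in human tumour invasion. It stood at 757, 692 and 445 CPM in standard cells, 766, 832 and 774 in MPs and 904, 638 and 701 in exosomes, and at 747, 776 and 352 CPM in osmotic and 498, 486 and 709 in ammonia cells. Its level in cells overlapped between all 3 cultures. The rat-named rno-miR-409a-3p, the same miR number and arm, stood at 568, 326 and 239 CPM in standard cells, 296, 399 and 373 in MPs and 558, 386 and 354 in exosomes, and at 189, 168 and 80.0 in osmotic and 128, 154.3 and 73.5 in ammonia cells. It took 31.4% to 36.8% of the pooled counts of both entries in the 3 standard fractions, 18.9% in osmotic and 18.0% in ammonia cells. Such entries can share reads in a proportion set by the counting, which the sources used here do not give, so each value alone is uncertain.

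In each standard fraction the highest mean was that of cgr-miR-369-3p, which in human cells binds AU-rich elements and affects translation. It stood at 749, 835 and 777 CPM in standard cells, 938, 975 and 1051 in MPs and 1325, 896 and 644 in exosomes. In osmotic cells it stood at 160, 163 and 136.2 CPM and in ammonia cells at 46.6, 106 and 49.7 CPM. Standard MPs lay above standard cells, while exosomes spanned both, and all stressed cell libraries were lower than all standard libraries, with kit and pool changing too. By mean level it ranked 73rd among all entries in standard cells, 68th in MPs and 75th in exosomes, and cgr-miR-409-3p ranked 83rd, 79th and 85th.

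Of the 8 entries averaging at least 50 CPM in a group, cgr-miR-154-3p was the only one with a higher mean in both stressed cell groups than in standard cells. It stood at 30.3, 11.1 and 0 CPM in standard cells, on 6 counts, and at 70.7, 88.2 and 76.2 CPM in osmotic cells. Ammonia cells gave 114, 50.6 and 0 CPM, so the ammonia range spans the others. Osmotic cells lay above standard cells without overlap, across kits and pools.

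**Figure D4:**
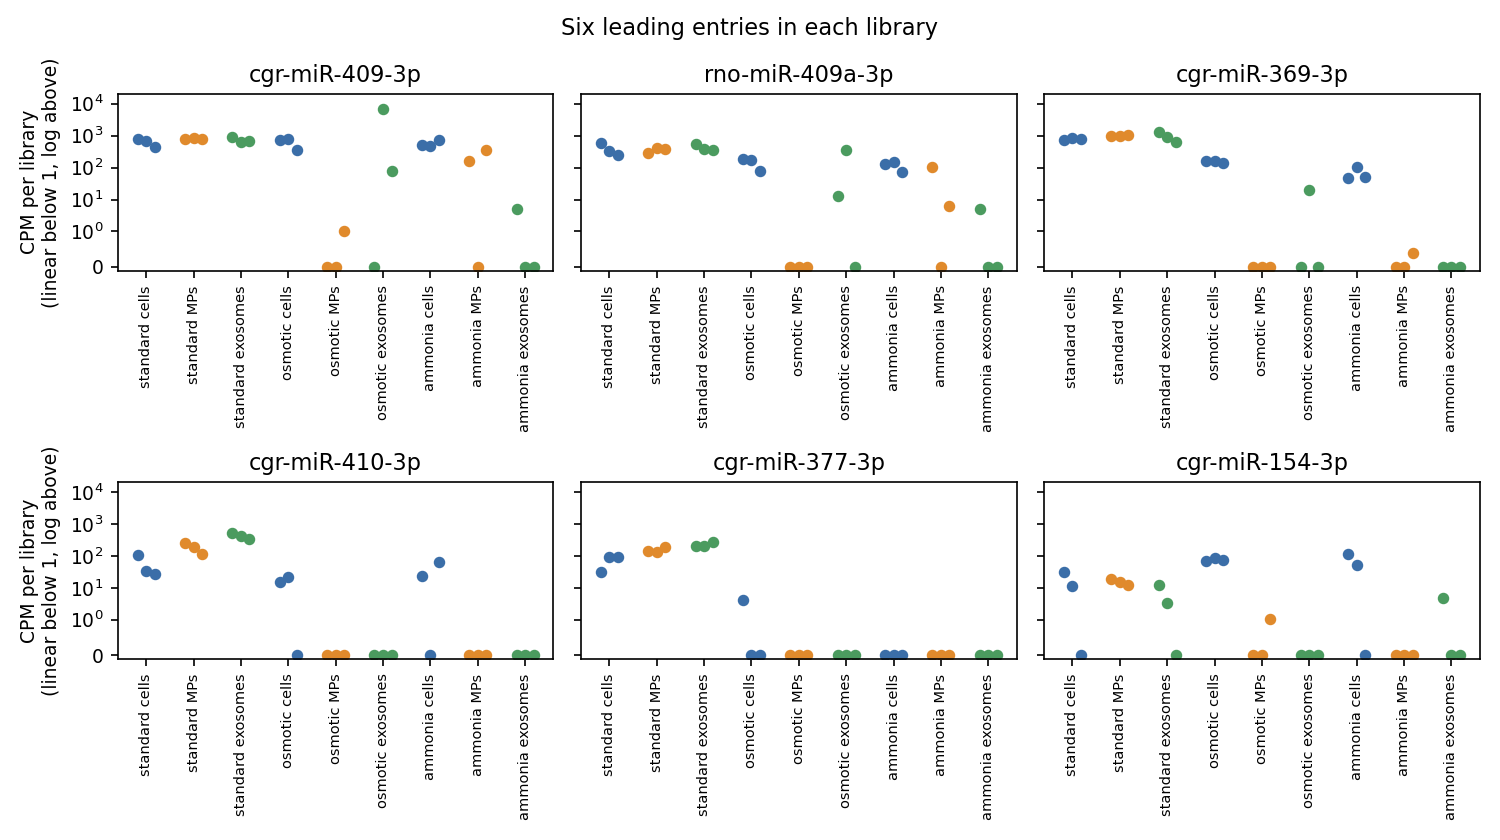
CPM (vertical axis, linear below 1 and logarithmic above) of 6 leading cluster entries in each of the 27 libraries, 3 points per group in replicate order. In standard culture all 6 entries have counts in nearly every library, whereas stressed MPs and exosomes are mostly at 0, and cgr-miR-377-3p is at 0 in 17 of 18 stressed libraries.

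Single cell libraries missed entries that their replicates held. Of cluster entries averaging at least 10 CPM in the group, 5 of 9 were at 0 in a library of ammonia cells, against 17.5% of all 302 such entries. In osmotic cells 1 of 7 was, against 6.73% of 327, and in the shallower standard cells 1 of 9 (cgr-miR-154-3p, in library 3), against 10.9% of 322. For miR-410, ammonia cell library 2 had 0 counts of cgr-miR-410-3p and 384 of cgr-miR-410-5p, while library 1 had 131 and 0 and library 3 had 344 and 101. For miR-154, ammonia cell library 3 was at 0 CPM of cgr-miR-154-3p and 23.3 of cgr-miR-154-5p, while library 1 was at 114 and 0 and library 2 at 50.6 and 11.3. The proportions of the remaining 2 libraries predict 295 counts of cgr-miR-410-3p and 417 of cgr-miR-154-3p in the libraries at 0. In osmotic cells, library 3 had 0 counts of cgr-miR-410-3p and of cgr-miR-369-5p, where 187 and 151 were predicted. In the 9 standard libraries the single zero where at least 10 counts were predicted was cgr-miR-154-3p in exosome library 3, with 17.7 predicted.

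The arms of the leading miRNAs were unequal. In the standard fractions the 3p arm held 84.1% to 88.2% of pooled miR-409 counts, 96.1% to 98.4% of miR-369 and at least 88.9% of miR-410. In ammonia cells the 3p arm of miR-410 held 49.5% of pooled counts, from none in library 2 to all in library 1. The mouse and hamster names of the 5p arm of miR-409 moved apart along the standard fractions: mmu-miR-409-5p held 50% to 58.3% of their joint counts in cell libraries, 71.6% to 78.1% in MPs and 83.3% to 86.5% in exosomes, without overlap between fractions.

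The first comparison asked how vesicles of the standard culture differ from the cells that shed them. Of the cluster, 11 of 351 entries tested had enough counts for the test, edgeR's quasi-likelihood F test with Benjamini-Hochberg adjustment, with a threshold of 0.05 on the adjusted p. In MPs against cells 1 of these 11 passed, against 31.3% of all entries tested. It was cgr-miR-410-3p, of a miRNA studied in insulin secretion by mouse beta cells. Its level was 106, 33.2 and 26.6 CPM in cells, on 14, 6 and 4 counts, and 243, 184 and 116 CPM in MPs. It rose by 1.71 ± 0.44 on the log2 scale (SE, 3 against 3 libraries, adjusted p = 0.00954), and the groups did not overlap. It passed whichever library of the 6 was left out (adjusted p 0.00162 to 0.0336).

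The abundant members showed smaller differences between MPs and cells. The log2 fold change was 0.27 ± 0.27 for cgr-miR-369-3p (adjusted p = 0.468) and 0.29 ± 0.23 for cgr-miR-409-3p (0.355). For rno-miR-409a-3p it was -0.10 ± 0.31, a sign that turned to 0.08 with the authors' scaling and without standard cell library 1 (0.24), cell library 2 (0.02) or MP library 1 (0.26). In all, 7 of the 11 entries were higher in MPs than in cells without overlap, against 27.1% of all entries tested, and none lower (18.8% of all). The median log2 fold change was 0.29 over the 11 and 0.07 over all entries. The count of members that passed was 3 without standard cell library 3 or without MP library 1, and 2 without cell library 2.

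In exosomes against cells 4 of the 11 entries passed, all higher, against 51.6% of all entries tested in either direction and 26.8% higher. The level of cgr-miR-410-3p in exosomes was 502, 413 and 327 CPM, a rise of 2.79 ± 0.44 on the log2 scale (adjusted p = 0.000114). The level of cgr-miR-377-3p, of a miRNA linked to fibronectin production in human and mouse kidney cells, was 30.3, 88.5 and 93.0 CPM in cells, on 4, 16 and 14 counts, and 201, 209 and 262 CPM in exosomes, with MPs between at 141.7, 132 and 193. It rose by 1.41 ± 0.38 (adjusted p = 0.00781). All exosome libraries of both entries exceeded all cell libraries.

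The mouse-named mmu-miR-377-3p was at 0 in the cells and at 23.6, 10.3 and 19.9 CPM in exosomes, at least 2.77-fold higher against the floor of 3 counts over the cell libraries (adjusted p = 0.0161), or 1.69-fold without cell library 2. In MPs it had 6 counts in each library. Its highest standard mean was in exosomes, through which it passed the filter on low counts, and this limits what its direction can show. The entry mmu-miR-409-5p stood at 53.0, 71.9 and 93.0 CPM in cells, 122.2, 130 and 143 in MPs and 179, 223.4 and 156 in exosomes, and rose by 1.15 ± 0.35 in exosomes (adjusted p = 0.0145). Without exosome library 2 its adjusted p was 0.0580. The hamster name of the same arm, cgr-miR-409-5p, went the other way at 37.8, 71.9 and 66.4 CPM in cells and 35.9, 38.9 and 24.3 in exosomes (-1.04 ± 0.46, adjusted p = 0.0705). With counts summed over species names, miR-409-5p differed by 0.66 ± 0.32 (adjusted p = 0.104), while miR-377-3p (1.68 ± 0.39, 0.0026) and miR-410-3p (2.92 ± 0.44, 0.000122) passed.

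The 3 most abundant members did not pass between exosomes and cells. Their log2 fold changes were 0.09 ± 0.27 for cgr-miR-369-3p (adjusted p = 0.823), 0.06 ± 0.23 for cgr-miR-409-3p (0.849) and 0.04 ± 0.31 for rno-miR-409a-3p (0.937). Without exosome library 1 all 3 turned negative, at -0.22, -0.11 and -0.20. The entry rno-miR-409a-3p was also negative without cell library 3 (-0.03), and by less than 0.01 with RLE scaling and DESeq2. The median over the 11 was 0.23, against 0.09 over all entries. In a fit of all 27 libraries no member passed in the 3 comparisons of standard fractions.

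In exosomes against MPs 2 of the 11 passed, both higher, against 29.6% of all entries tested. The rise of cgr-miR-410-3p was 1.09 ± 0.35 on the log2 scale (adjusted p = 0.0284), so its 3 fractions stood in the order cells, MPs, exosomes with no overlap between any pair. The entry cgr-miR-496 stood at 1.22, 0 and 2.39 CPM in MPs, on 4 counts, and 9.19, 13.6 and 13.8 CPM in exosomes, a rise of 3.06 ± 0.97 (adjusted p = 0.0273). In cells it had 2 counts, both in library 1. Its highest standard mean was in exosomes, through which it passed the filter on low counts, and this limits what its direction can show. The call of cgr-miR-496 was lost without that filter and by DESeq2. Without MP library 2, MP library 3 or exosome library 2 neither entry passed, without exosome library 1 cgr-miR-410-3p did not (adjusted p up to 0.122 over all left-out libraries), and without MP library 1 cgr-miR-496 did not (up to 0.120). The median was 0.13 over the 11 and 0.01 over all entries.

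**Figure D5:**
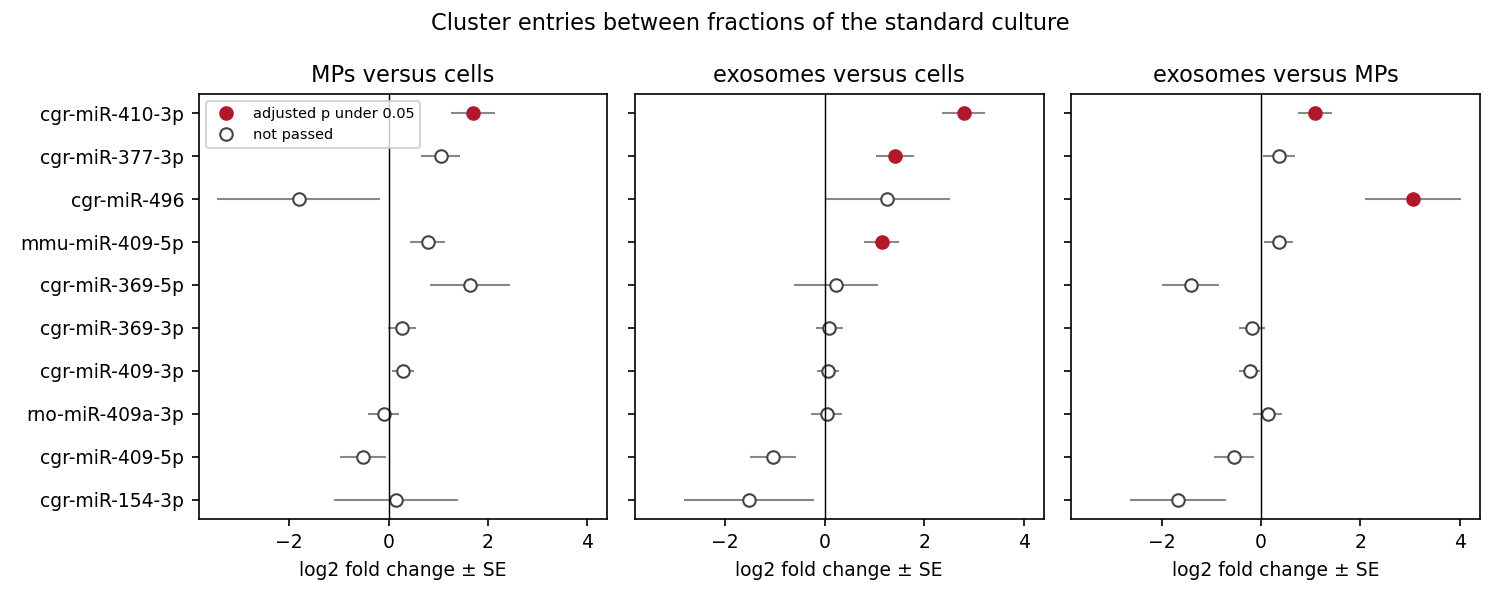
Log2 fold change ± SE (horizontal axis) of 10 cluster entries between fractions of the standard culture, from edgeR (3 against 3 libraries), with filled points for an adjusted p under 0.05. Entry mmu-miR-377-3p, at 0 in cells, is not drawn. Points for cgr-miR-410-3p are filled in all 3 panels, and those of cgr-miR-369-3p, cgr-miR-409-3p and rno-miR-409a-3p lie near 0.

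The next comparison asked how vesicles of stressed cultures differ from their cells. Of the cluster, 9 of 332 entries were tested in the 18 stressed libraries, whose spread was wide (biological coefficient of variation 1.38, against 0.301 in standard libraries). In osmotic MPs against cells 6 of the 9 passed, all lower, against 51.5% of all entries in either direction and 48.5% lower. Of the 9 members tested, 7 had their highest stressed mean in cells and so passed the filter on low counts there, which limits what their direction can show. Without that filter 0 members passed. The median log2 ratio of mean CPM, with groups at 0 set to their floor, was -4.59 over the 9 and -4.41 over all entries.

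The osmotic MP libraries were nearly empty of the cluster. Of the 9 members tested, 7 were at 0 in all 3 of them, against 38.3% of all entries tested. The entry cgr-miR-369-3p, at up to 163 CPM in osmotic cells, was at 0 in the MPs and at least 125-fold lower (adjusted p = 0.00847). The entry cgr-miR-409-3p had 1 count in MPs against 16226 in cells, a 1482-fold lower share by pooled counts (95% counting interval 266 to 58553). That interval leaves out the spread between libraries. The edgeR fit gave -9.60 ± 3.13 on the log2 scale (SE, adjusted p = 0.0196). For cgr-miR-154-3p, with 1 count against 2103, the pooled share was 192-fold lower (34.4 to 7592). Its fit gave -6.64 ± 2.25 (adjusted p = 0.0238). Lower bounds for those at 0 were 119-fold for rno-miR-409a-3p (adjusted p = 0.0131), 24.1-fold for cgr-miR-409-5p (0.0249) and 16.2-fold for mmu-miR-409-5p (0.0250). The entries cgr-miR-410-3p, cgr-miR-412-5p and mmu-miR-485-5p, also at 0 in these MPs, did not pass (adjusted p 0.116 to 0.368). The count of members that passed was 0 without osmotic MP library 2, 1 without MP library 3, 2 without MP library 1 and 3 without cell library 3, and cgr-miR-154-3p did not pass when any 1 of the 6 libraries was left out. The call of cgr-miR-409-5p held only without cell library 2 and that of mmu-miR-409-5p only without cell library 1 (adjusted p up to 0.0837 and 0.0858). Any 1 MP library left out ended the call of cgr-miR-409-3p, MP library 2 or 3 that of rno-miR-409a-3p and MP library 2 that of cgr-miR-369-3p (0.0508). Without cell library 3 the bounds of cgr-miR-409-5p and mmu-miR-409-5p were 14.2-fold and 8.94-fold, and without MP library 2, the deepest, those of cgr-miR-369-3p and rno-miR-409a-3p were 69.0-fold and 65.7-fold. Without MP library 2 the 5p bounds were 13.3-fold and 8.94-fold, and without MP library 3 the bounds of all 4 entries at 0 were 75.7-, 72.0-, 14.6- and 9.81-fold, cgr-miR-369-3p and rno-miR-409a-3p first.

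In osmotic exosomes no member passed against cells by edgeR, as no entry of the 332 did (0%). Before adjustment 2 members were under 0.05, against 23.8% of all entries, and DESeq2 called 0 members. Against osmotic MPs no member passed either (2.41% of all entries), with 3 members under 0.05 before adjustment (25.6% of all entries) and 1 called by DESeq2. The levels of cgr-miR-409-3p in osmotic exosomes were 0, 6902 and 75.4 CPM on 0, 345 and 2 counts, and those of rno-miR-409a-3p were 12.6, 360 and 0 CPM on 2, 18 and 0. Every other member had at most 1 count in this group.

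In ammonia MPs against cells 5 of the 9 entries passed, all lower, against 32.5% of all entries in either direction and 31.0% lower. The entry cgr-miR-369-3p had 1 count in MPs against 1253 in cells, 527-fold lower by pooled counts (95% counting interval 94.3 to 20813). The edgeR fit, which takes in the spread between libraries, gave -8.38 ± 1.84 on the log2 scale (SE, adjusted p = 0.00492). The other 4 were at 0 in ammonia MPs: cgr-miR-154-3p was at least 137-fold lower (adjusted p = 0.00846), mmu-miR-409-5p 78.8-fold (0.0113), cgr-miR-410-3p 73.7-fold (0.0442) and cgr-miR-409-5p 22.9-fold (0.0294). In ammonia cells mmu-miR-409-5p stood at 25.0, 36.5 and 33.04 CPM and cgr-miR-409-5p at 14.7, 11.8 and 0.955 CPM. Both cgr-miR-154-3p and cgr-miR-410-3p were also at 0 in 1 ammonia cell library, so their groups overlap at 0. Without cell library 1 the bound of cgr-miR-154-3p was 63.2-fold, and without cell library 3 that of cgr-miR-410-3p was 28.4-fold. Without MP library 1 the bounds of cgr-miR-154-3p, mmu-miR-409-5p, cgr-miR-410-3p and cgr-miR-409-5p were 82.8-, 47.6-, 44.5- and 13.9-fold, and without MP library 3 they were 90.1-, 51.8-, 48.4- and 15.1-fold. Without the filter on low counts 0 members passed here too. The call of cgr-miR-410-3p was lost without any 1 of ammonia cell libraries 1 and 3 and MP libraries 1, 2 and 3, and that of cgr-miR-409-5p without cell library 2 or any 1 MP library. With groups at 0 set to their floor, the median log2 ratio was -5.88 over the 9 and -1.64 over all entries. Since 7 of the 9 had their highest stressed mean in cells and passed the filter there, this contrast cannot show a loss particular to the cluster.

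In ammonia MPs 6 of the 9 members tested were at 0 in every library, against 24.1% of all entries tested. Among these 6, cgr-miR-412-5p and mmu-miR-485-5p did not pass (edgeR adjusted p = 0.0541 and 0.161). The 3p entries of miR-409 were the only members tested with more than 1 count in ammonia MPs. The level of cgr-miR-409-3p there was 162, 0 and 360 CPM, on 480, 0 and 926 counts, below all 3 ammonia cell libraries (-1.35 ± 2.10, adjusted p = 0.770). The level of rno-miR-409a-3p was 105, 0 and 6.23 CPM (-1.51 ± 1.74, adjusted p = 0.631). MP library 2, which held none of either, had 1962086 counts. The remaining cluster counts in ammonia MPs were 1 of cgr-miR-369-3p and 2 of cgr-miR-410-5p.

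In ammonia exosomes against cells 1 of the 9 entries passed, against 9.04% of all entries tested. It was cgr-miR-369-3p, at 0 in the exosomes and at least 10.7-fold lower (adjusted p = 0.0438; 6.08-fold without exosome library 1), and the call was lost when any 1 of the 6 libraries was left out (adjusted p 0.0660 to 0.153). The entry cgr-miR-409-3p had 1 count in ammonia exosomes against 9914 in cells and did not pass (adjusted p = 0.0637). The median log2 ratio, with groups at 0 set to their floor, was -2.32 over the 9 and -2.53 over all entries. In ammonia exosomes against MPs no member passed by edgeR (0.301% of all entries), 1 was under 0.05 before adjustment (28.3% of all entries) and DESeq2 called 0.

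The last comparison set osmotic against ammonia culture within each fraction. In cells no member passed, as no entry did by edgeR (0%), with 0 members under 0.05 before adjustment (3.92% of all entries) and 0 by DESeq2. Osmotic cells exceeded ammonia cells without overlap for cgr-miR-369-3p (153 CPM ± 14.7 against 67.4 ± 33.3, log2 fold change 0.83 ± 1.29, adjusted p = 0.997), 1 of the 9 members, against 24.7% of all entries whose groups did not overlap. For cgr-miR-409-3p the value was -0.22 ± 2.06, and it turned to 0.15 with library size alone, 0.58 without a filter on low counts and 0.06 without osmotic cell library 3. In MPs 1 member passed, against 19.3% of all entries: rno-miR-409a-3p was at 0 in osmotic MPs and at least 30.4-fold lower there than in ammonia MPs (adjusted p = 0.0343). Ammonia MP library 2 was also at 0, so the groups overlap. The bound rests on ammonia MP library 1 at 105 CPM: it was 2.55-fold without that library, 16.7-fold without osmotic MP library 2 and 18.3-fold without osmotic MP library 3. That call was lost without any 1 osmotic MP library or without ammonia MP library 1, and the count was 2 without ammonia MP library 2. In exosomes no member passed (0% of all entries), with 2 under 0.05 before adjustment (18.4% of all entries) and 0 called by DESeq2.

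Whether a difference between fractions itself changed with the culture was tested as a difference of differences, a test added after the data were seen. Between the stressed cultures, the exosome minus MP difference passed for 2 of 9 members (8.43% of all entries), cgr-miR-409-3p and rno-miR-409a-3p. Without osmotic exosome library 2, which held 345 of the 347 counts of cgr-miR-409-3p in its group, their adjusted p was 0.0972 and 0.105 in edgeR. Their MP minus cell and exosome minus cell differences did not pass, nor did those of any other member (0.301% and 0% of all entries). Tests between standard and stressed cultures came from 1 fit of all 27 libraries, with 420 entries tested, 13 of them members. That fit is the one in which no member passed between standard fractions. It used the filter on low counts, and no difference of differences was run without that filter. Members at or near 0 in stressed vesicles carry that low level into these tests, which limits what their direction can show. Between the standard and osmotic cultures, the MP minus cell difference passed for 7 of 13 members (38.6% of all entries), the exosome minus cell difference for 0 (10%) and the exosome minus MP difference for 0 (1.43%). Between the standard and ammonia cultures the counts were 6 of 13 (21.9%), 4 (21.4%) and 0 (3.33%) in the same order. In each of these 5 tests without a call, 1 to 3 members were under 0.05 before adjustment by edgeR, against 7.83% to 29.8% of all entries, and DESeq2 was not run. In the tests between standard and stressed cultures, stress cannot be told apart from kit and pool, and the entries are named with their p-values among the additional observations.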

How the data were processed

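Small RNA was sequenced from 27 libraries, 3 for each of 3 fractions in 3 cultures. The authors deposited whole-number read counts for each mature miRNA. Grouping was on the mature sequence, per the file headers, which for stressed libraries also name trimming and a length limit. The submitters' processing notes name FastQC 0.10.1, cutadapt 2.8, GRCm38, Rnor_6.0 and GRCh38. The sources used here do not give the counting tool. A normalised signal, in deposited columns headed CPM, is the count over an effective library size of 0.0595 to 2.15 times the total, and it served only as an alternative scaling. A further 54 columns of values per sample in a table of the authors' comparisons were not used.

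CPM here is the count over the library's summed count, times 1000000. Counts were tested with edgeR 4.0.16 in R 4.3.3 (TMM scaling, filterByExpr by group, quasi-likelihood F test, Benjamini-Hochberg over all entries tested), in separate fits of the 9 standard (351 entries) and the 18 stressed libraries (332 entries), for 12 comparisons. Differences of differences used the stressed fit between the stressed cultures, and 1 fit of all 27 libraries (420 entries) between standard and stressed cultures. The SE was derived from the F statistic. The fitting was tested on simulated data. A fold against a group at 0 is a lower bound at 3 counts over the group's total, without a fitted fold. With 1 to 3 counts the ratio of pooled counts per total has an exact binomial 95% interval. Bounds and intervals cover counting error only, since PCR copies of 1 molecule are counted as separate reads.

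Entries are named when they average at least 10 CPM in a group or pass a test, with values per library from 50 CPM or a passed test. Libraries were not treated as paired by replicate number. In none of the 12 comparisons did same-numbered libraries correlate above 0.1 in every pair (-0.297 to 0.188). With 3 libraries per group this cannot exclude pairing. Alternatives were RLE scaling, library size alone, the authors' sizes, no filter, DESeq2 1.42.0, a replicate block, summing entries over species names, a fit of all 27 libraries, and leaving out each library. Summing joined only names identical after the species prefix, so cgr-miR-409-3p and rno-miR-409a-3p stayed separate. Gene order came from RefSeq names. Sequences of the miRNAs are not shown here. Cluster members and lists were chosen with earlier results of these data known.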

Additional observations from a re-analysis of the deposited data

Results flagged for a closer look

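Tests of whether a difference between fractions changed with the culture, an interaction term in edgeR chosen after seeing the data, passed for 19 of the cluster's results over 9 such tests. Between the stressed cultures, which share kit and pool, the exosome minus MP difference was higher in osmotic than in ammonia culture for cgr-miR-409-3p (adjusted p = 0.0144) and rno-miR-409a-3p (0.0225), 2 of 9 members against 8.43% of all entries tested. Without osmotic exosome library 2, which gave 345 of the 347 counts of cgr-miR-409-3p in its group, the adjusted p was 0.0972 and 0.105. Both calls were also lost without osmotic MP library 1 or 2 or any 1 ammonia exosome library, and that of rno-miR-409a-3p without osmotic cell library 1 or 3 or osmotic MP library 3.

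In differences between standard and stressed culture, stress cannot be told apart from kit and pool. These differences came from 1 fit of all 27 libraries, after the filter on low counts. Osmotic MPs held 2 cluster counts and ammonia exosomes 4, so these tests carry that low level, which limits what their direction can show. The MP minus cell difference was higher in standard than in osmotic culture for 7 of 13 members tested, against 38.6% of all entries: cgr-miR-369-3p (adjusted p = 0.00137), mmu-miR-409-5p (0.00816), rno-miR-409a-3p (0.00840), cgr-miR-409-5p (0.0100), cgr-miR-409-3p (0.0100), cgr-miR-369-5p (0.0387) and cgr-miR-154-3p (0.0440). With each library of both cultures left out in turn, 5 passed every time, and the adjusted p reached 0.0668 for cgr-miR-369-5p and 0.0862 for cgr-miR-154-3p. The call of cgr-miR-369-5p was lost without standard cell library 1 or 3 or osmotic MP library 2 or 3, and that of cgr-miR-154-3p without standard cell library 2 or 3, standard MP library 1 or 3, osmotic cell library 2 or osmotic MP library 1 or 2.

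The same MP minus cell difference was higher in standard than in ammonia culture for 6 of 13, against 21.9% of all entries: mmu-miR-409-5p (adjusted p = 0.00146), cgr-miR-369-3p (0.00219), cgr-miR-409-5p (0.0131), cgr-miR-154-3p (0.0141), cgr-miR-410-3p (0.0171) and cgr-miR-412-5p (0.0328). Of these, cgr-miR-412-5p lost its call without standard cell library 1 or 2, ammonia cell library 3 or ammonia MP library 1 (up to 0.0798), and the other 5 passed every time. The exosome minus cell difference was higher in standard than in ammonia culture for 4 of 13, against 21.4% of all entries: cgr-miR-369-3p (adjusted p = 0.0124), mmu-miR-409-5p (0.0141), cgr-miR-409-3p (0.0315) and cgr-miR-410-3p (0.0440). The last 2 lost their calls without any 1 standard cell library, ammonia MP library 1 or ammonia exosome library 2 or 3 (up to 0.0855 and 0.0916), and cgr-miR-410-3p also without standard exosome library 1, ammonia cell library 3 or ammonia exosome library 1. In the other 5 tests no member passed by edgeR, with 1 to 3 members each at an unadjusted p under 0.05. No difference of differences was run with DESeq2 or without the filter on low counts.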

How the results depend on the processing

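The count of cluster entries that passed depended on the setting in most comparisons, and no cause was tested. In standard MPs against cells it went from 1 to 2 with library size alone, without a filter and with entries summed over species names, to 3 with the authors' sizes, to 0 in the fit of all 27 libraries, and ran from 1 to 3 with a library left out. In standard exosomes against cells it went from 4 to 2 with summed entries, where 9 members remain to be tested, and to 0 in the fit of all 27, with 3 to 5 on leaving out a library. In standard exosomes against MPs it went from 2 to 1 without a filter and by DESeq2 and to 0 in the fit of all 27, with 0 to 2 on leaving out a library.

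In osmotic MPs against cells the count went from 6 to 0 without a filter and 2 by DESeq2, with 0 to 4 on leaving out a library. In osmotic exosomes against MPs it went from 0 to 2 with RLE scaling, library size alone, the authors' sizes and the fit of all 27, and to 1 without a filter and by DESeq2, with 0 to 1 on leaving out a library. In ammonia MPs against cells it went from 5 to 0 without a filter and to 3 with summed entries and by DESeq2, with 3 to 5 on leaving out a library. In ammonia exosomes against cells it went from 1 to 0 with RLE scaling, the authors' sizes, no filter and DESeq2, to 3 with summed entries and to 5 in the fit of all 27, with 0 to 0 on leaving out a library. The fit of all 27 also gave 2 in osmotic exosomes against cells, 1 in ammonia exosomes against MPs, and in osmotic against ammonia culture 1 in cells, 2 in MPs and 1 in exosomes. Osmotic against ammonia MPs gave 0 to 2 on leaving out a library.

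With the replicate number as a block the count was 2 in standard MPs against cells, 3 in ammonia MPs against cells, 0 in ammonia exosomes against cells and 0 in osmotic against ammonia MPs, and within 1.5 times of the reported count in the other comparisons. Whether the numbers pair libraries of the same culture is not settled, so the lower counts with a block stand as a limit on those calls.

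Scaled by the authors' sizes, the summed level of cells, MPs and exosomes in standard culture was 1201, 1729 and 2019, that of osmotic cells 583, of ammonia cells 685 and of ammonia exosomes 51.7. The standard fractions kept their order, osmotic cells fell below ammonia cells, and osmotic exosomes, at 4490 through library 2, became the highest group. The median log2 fold change of all entries moved by 0.39 in standard exosomes against cells with the authors' sizes and by 0.21 with library size alone, and by 3.46 and 2.54 in ammonia exosomes against cells with the authors' sizes and RLE scaling. Values near 0 changed sign in 3 entries. For rno-miR-409a-3p in standard MPs against cells they were 0.076 with the authors' sizes and 0.088 without a filter, and ran from -0.17 to 0.26 on leaving out a library. In standard exosomes against cells they were -0.0082 with RLE scaling and -0.00093 by DESeq2 for rno-miR-409a-3p, with -0.20 to 0.37 on leaving out a library, -0.22 to 0.37 for cgr-miR-369-3p and -0.11 to 0.34 for cgr-miR-409-3p. In osmotic against ammonia cells cgr-miR-409-3p gave 0.15 with library size alone and 0.58 without a filter, with -0.42 to 0.064 on leaving out a library. No called fold change reversed. Depth limits osmotic exosomes most, where the floor of 3 counts over the group is 12.7 CPM, then standard cells (6.47) and ammonia exosomes (6.32).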
